A study of Mus musculus with 6 samples.

Results

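This account concerns 8 genes of the contractile actin apparatus, Tagln, Acta2, Actg2, Cnn1, Cnn2, Myl9, Tpm1 and Tpm2, in cells sorted during neural differentiation of mouse embryonic stem cells. They were gathered around Tagln, which had been seen to be higher at day 3 than in undifferentiated cells, to ask whether other contractile genes share its pattern. The members were the probe sets that the platform annotation assigns to exactly 1 of these 8 symbols. There were 16 of them among 45101 probe sets, and they gave 8 of 18193 genes. The values of Tagln at day 3 against undifferentiated cells led to the choice, so that comparison is given for all 8 genes as a description without a test.

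The cells were OLV2-1, 1 line of mouse embryonic stem cells whose Oct4 (Pou5f1) locus carries the fluorescent reporter Venus, so every group has the knock-in allele. The ESC group held undifferentiated cells, sorted as Venus-positive and, in the sorting protocol, CD31 (Pecam1)-positive. The EpiSC-like group held epiblast stem cell-like cells, Venus-positive and Pecam1-negative, from aggregates at day 3 of SFEBq, a serum-free suspension culture used for neural induction. The day 7 group (Day7_Oct4-Venus+) held Venus-positive cells from such aggregates at day 7, with no Pecam1 gate named. Each group had 2 arrays. Trypsin, a recovery of 1 hour and antibody staining preceded the sort of ESC and of day 3 cells, while day 7 cells were freed with EDTA alone, so that stage and handling cannot be told apart at day 7. The labels do not tie the paired arrays to separate cultures, and p-values therefore measure the spread between these samples, which may be technical.

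Contractile actin-binding proteins decorate actin filaments and couple them to myosin. In smooth muscle many of their genes are switched on by serum response factor (SRF), which binds a DNA element called the CArG box together with a cofactor, either myocardin or one of the myocardin-related factors (MRTF), which enter the nucleus when the pool of free actin monomers shrinks. Tagln encodes transgelin (SM22-alpha), a calponin-related protein that binds actin filaments and marks early smooth muscle. Several of these genes are also active in cells that are not muscle, among them fibroblasts that assemble stress fibres.

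Arrays were comparable in overall scale, with medians over all probe sets from 63.99 to 76.32 intensity units. The replicate 1 and replicate 2 arrays formed 2 sets by brightness, with highest signals of 30793 to 36841 on the first and 63296 to 66643 on the second, so differences are also given within each set. Pou5f1, the gene of the reporter locus, read between 6244 and 14055 on all 6 arrays. Fgf5, an epiblast growth factor, read 26.2 and 25.9 in ESC, 1009 and 1243 in EpiSC-like cells, and 409 and 215 at day 7, so both EpiSC-like arrays were the highest. Pecam1, the gene of the sorted antigen, read 401 and 177 in EpiSC-like cells against 728 and 343 in ESC, so these groups overlapped in its transcript. The actin control probes, of which those at the 3' end outshine those at the 5' end as RNA degrades, differed by 0.708 and 0.940 (log2) on the day 7 arrays, against 0.456 to 0.585 on the other 4. The Gapdh control probes did not set day 7 apart, at -0.115 and -0.185 against -0.356 to 0.005 on the other 4.

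The plainest pattern lay in Tagln, Cnn1, Myl9 and Acta2, each of which had its highest signals at day 3. Tagln (NCBI gene 21345, chr9:45929628-45936058 in GRCm38.p6) read 75.2 and 28.6 in ESC, 327 and 835 in EpiSC-like cells, and 13.6 and 29.1 at day 7. Both EpiSC-like arrays stood above all 4 others, and the ESC and day 7 arrays overlapped. On the log2(signal + 16) scale used for every difference below, which compresses the changes of dim genes, Tagln stood 3.08 ± 0.54 (standard error of the fit) higher in EpiSC-like cells than in ESC, 1.91 in the first set of arrays and 4.26 in the second. The ratio of the mean signals was 11.2. In sorted bulk samples such as these, a change in the share of cells that carry a transcript and a change in RNA per cell cannot be told apart.

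Cnn1 (gene 12797, chr9:22099221-22109221) encodes calponin 1, an inhibitor of actin-activated myosin that is characteristic of smooth muscle. It read 13.5 and 15.1 in ESC, 72.6 and 252 in EpiSC-like cells, and 15.2 and 14.4 at day 7. The 4 arrays outside day 3 lay within 2 intensity units of each other, close to the pseudocount of 16, and both day 3 arrays stood above them. The difference of EpiSC-like cells from ESC was 2.35 ± 0.49, with 1.59 and 3.11 in the 2 sets.

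**Figure D1:**
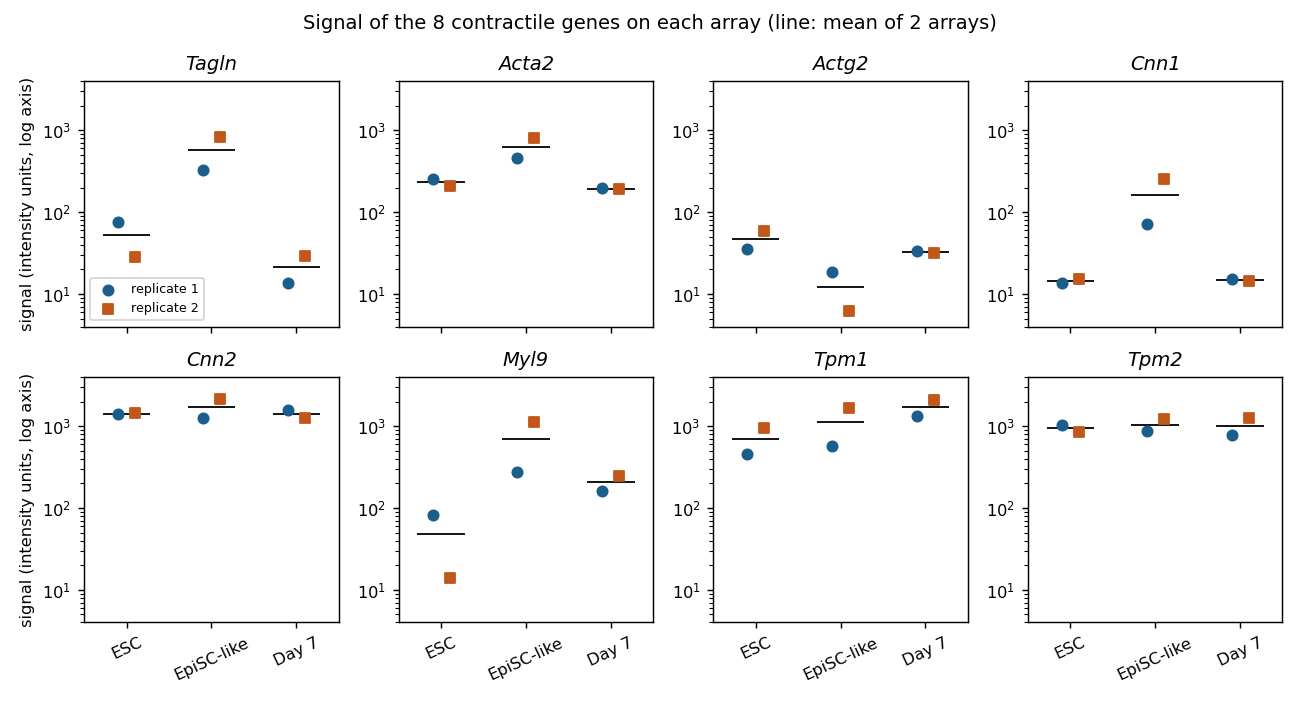
Signal of each of the 8 genes (intensity units, log axis) on each array, by group in the order of the culture; circles are replicate 1, squares replicate 2, and lines the mean of 2 arrays. Tagln, Cnn1, Myl9 and Acta2 have both EpiSC-like arrays above the other 4, Actg2 has both below, and Cnn2 and Tpm2 lie between 778 and 2136 units throughout.

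Myl9 (gene 98932, chr2:156775408-156781657) encodes a regulatory light chain of myosin II, the subunit whose phosphorylation switches on contraction. Its signals were 82.9 and 13.9 in ESC, 276 and 1129 in EpiSC-like cells, and 163 and 249 at day 7. No 2 groups overlapped, and the order was ESC lowest, day 7 between and EpiSC-like highest, and at day 7 it still stood above both ESC arrays. EpiSC-like cells exceeded ESC by 3.41 ± 0.77, with 1.56 in the first set and 5.26 in the second. The 2 ESC arrays differed from each other about as widely as the first ESC array did from the first EpiSC-like array.

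Among the actins, the 2 smooth muscle genes went opposite ways. Acta2 (gene 11475, chr19:34240336-34255585), smooth muscle alpha-actin, read 256 and 211 in ESC, 453 and 811 in EpiSC-like cells, and 195 and 193 at day 7. Both EpiSC-like arrays were again the highest, by 1.32 ± 0.32 over ESC, 0.78 and 1.87 in the 2 sets. These values come from 1416454_s_at, a probe set of the kind that the manufacturer marks as shared by several transcripts, and signal from other actins cannot be told apart in it. The other Acta2 probe sets, 1456658_at and 1444105_at, read 19.4 or less on every array and showed no such step (-0.35 ± 0.33 and -0.33 ± 0.28). Actg2 (gene 11468, chr6:83512909-83536251), smooth muscle gamma-actin, was dim everywhere, at 35.5 and 58.2 in ESC, 18.4 and 6.25 in EpiSC-like cells, and 34.0 and 31.5 at day 7. Both EpiSC-like arrays lay below the other 4, with a difference from ESC of -1.16 ± 0.31.

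The remaining genes were bright in all groups. Cnn2 (gene 12798, chr10:79988600-79995400), a calponin found in many cells that are not muscle, read 1397 and 1435 in ESC, 1269 and 2136 in EpiSC-like cells, and 1563 and 1246 at day 7. Its highest array was an EpiSC-like one and the other EpiSC-like array lay below both ESC arrays, and the difference from ESC, 0.22 ± 0.31, was within the spread. Tpm2 (gene 22004, chr4:43513726-43523583), beta-tropomyosin, read 1035 and 846 in ESC, 868 and 1222 in EpiSC-like cells, and 778 and 1249 at day 7. All of its groups overlapped.

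Tpm1 (gene 22003, chr9:67022590-67049672) encodes alpha-tropomyosin, which lies along the actin filament and is made in many splice forms. Its brightest probe set read 453 and 952 in ESC, 577 and 1652 in EpiSC-like cells, and 1336 and 2100 at day 7. The day 7 arrays were above both ESC arrays, and the EpiSC-like arrays overlapped both other groups. The 4 Tpm1 probe sets did not give 1 answer at day 7: 1423049_a_at, 1456623_at and 1447713_at stood at 1.33 ± 0.58, 0.96 ± 0.35 and 0.95 ± 0.29 above ESC, while 1423721_at stood at -0.05 ± 0.32. The last of these is nearly as bright as the first and read 830 and 969 in ESC, 931 and 1532 in EpiSC-like cells, and 813 and 917 at day 7. The 4 Tpm2 probe sets were alike at day 3, with differences from ESC of 0.06 to 0.20.

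**Figure D2:**
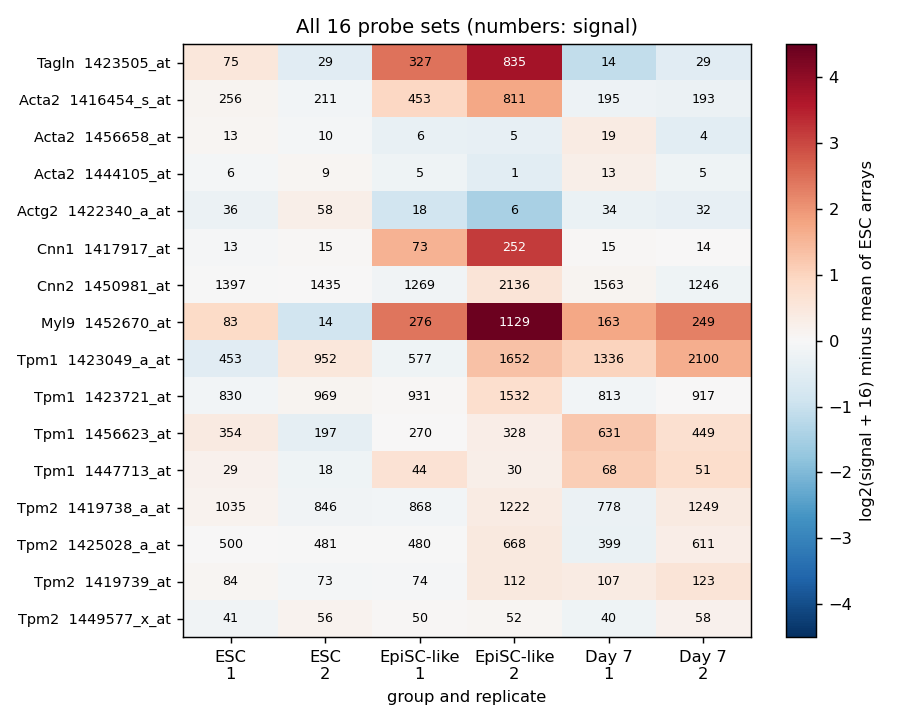
All 16 probe sets of the 8 genes (rows) on the 6 arrays (columns); colour is log2(signal + 16) minus the mean of the ESC arrays, and the printed numbers are signals in intensity units. The day 3 step is seen in 1 of 3 Acta2 probe sets and in the single probe sets of Tagln, Cnn1 and Myl9, and 3 of 4 Tpm1 probe sets are darker red at day 7.

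Counted over the 8 genes, 4 had both EpiSC-like arrays above the other 4 arrays, against 11.3% of all genes, and 1 had both below, against 8.29%. Tagln was chosen from this step, so nothing is read from the excess. The 8 differences of EpiSC-like cells from ESC had a median of 0.94, against 0.03 over all genes, and 7 of 8 were above 0. Without Tagln the median of the other 7 was 0.56. The call of Tagln here is what led to the choice, so no count of calls is read against the 1.90% of all genes that were called (adjusted p under 0.05 in limma). In the 6 fits that left out 1 array, the difference of Tagln ran from 2.43 to 3.74. The call was lost with a pseudocount of 1, with arrays centred on their median, with quantile normalization, with the replicate block and with all probe sets fitted. In that order of settings 0%, 1.7%, 1.6%, 0% and 0.473% of all genes passed. The call was kept with a pseudocount of 64, with all probe sets of a gene averaged and with a variance trend, where 3.66%, 1.48% and 4.36% of all genes passed. It was kept under both signal filters too, which use means that include the day 3 arrays, where 4.73% and 8.22% of all genes passed. As Tagln was chosen from this comparison, neither outcome is read as a test. The replicate 2 EpiSC-like array exceeded replicate 1 by 1.41 to 4.10 times in 7 of the 8 genes, the exception being Actg2. Without that array the median of the 8 was 0.40, and without EpiSC-like replicate 1 it was 1.52. The median was 0.30 when all probe sets of each gene were averaged.

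At day 7 against ESC, 0 of the 8 genes passed (limma, Benjamini-Hochberg adjusted over 18193 genes), against 1.05% of all genes, and 1 of 8 had an unadjusted p under 0.05, against 18.3% of all genes. This comparison shares its ESC arrays with the one from which Tagln was chosen. The 1 gene was Myl9, higher by 2.00 ± 0.77 (adjusted p = 0.246 in limma), with 0.86 in the first set and 3.15 in the second. Tpm1 followed at 1.33 ± 0.58 (adjusted p = 0.291 in limma), 1.53 and 1.13 in the sets. Tagln was at -0.80 ± 0.54, Acta2 at -0.24 ± 0.32 and Actg2 at -0.34 ± 0.31, and Cnn1, Cnn2 and Tpm2 lay between -0.02 and 0.07. Tagln stood at -1.62 in the first set and 0.02 in the second. The 13 measured primitive and visceral endoderm markers summed to 3464 and 14675 on the day 7 arrays, against 2197 and 2476 on the ESC arrays. Their part in the day 7 values was not tested.

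Day 7 against EpiSC-like cells shares the day 3 arrays from which Tagln was chosen, so Tagln's difference there, -3.88 ± 0.54, is a description. Of the other 7 genes 0 passed, as did 0% of all genes, and 3 of the 7 had an unadjusted p under 0.05, against 14.1% of all genes. Cnn1 stood at -2.32 ± 0.49 (adjusted p = 0.126 in limma) and Acta2 at -1.57 ± 0.32 (adjusted p = 0.118). In Acta2 the difference was -1.15 in the first set and -1.99 in the second, and in Cnn1 -1.51 and -3.14. Myl9 stood at -1.41 ± 0.77 and Actg2 at 0.82 ± 0.31 (adjusted p = 0.482 and 0.321 in limma). Among genes at or above the median signal alone, Acta2 passed (adjusted p = 0.0308), although not over all genes.

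**Figure D3:**
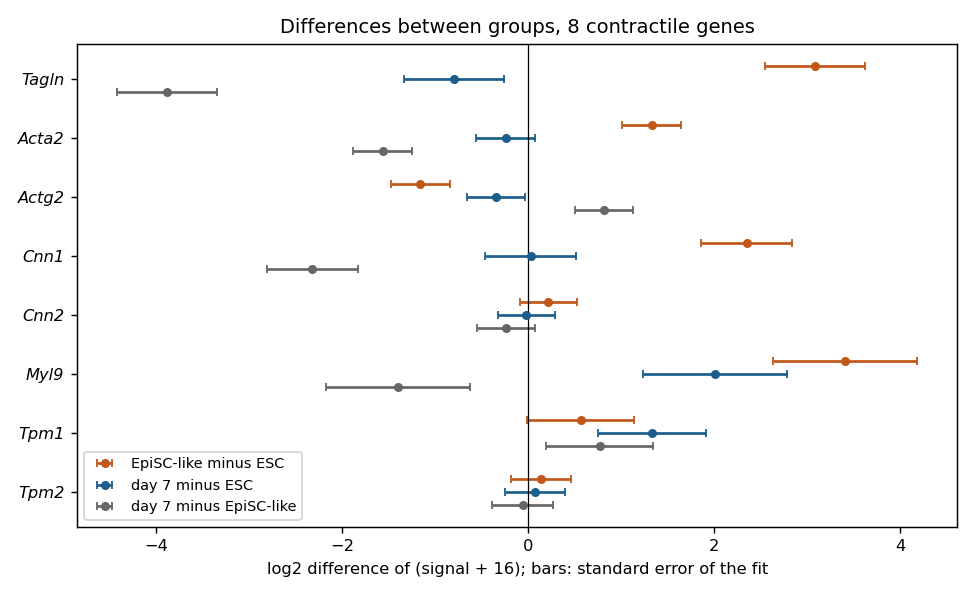
Log2 differences of (signal + 16) between groups for the 8 genes, with bars of 1 standard error of the limma fit. Tagln, Cnn1 and Acta2 are positive for EpiSC-like minus ESC and negative for day 7 minus EpiSC-like, with day 7 minus ESC nearer 0, while Myl9 and Tpm1 stay positive at day 7.

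Since SRF acts through CArG boxes, the 250 bases before a transcript start were read in the RefSeq promoter table (GRCm38.p6), which held windows for 6 of the 8 genes, all but Tagln and Actg2. The outer bounds of a gene can lie upstream of that start: 212 bases of the Acta2 window, 56 of the Myl9 window, 32 of the Cnn1 window and 0 of the Cnn2 window fell inside the gene's bounds, as did 250 for Tpm1 and 29 for Tpm2. A CArG box was taken as CC, 6 bases that are each A or T, and GG, a pattern that reads alike on both strands. Of the 6 genes 2, Cnn2 and Myl9, had an exact box, as did 1.47% of 32851 windows. With 1 core base off allowed, 3 of the 6 had one, Acta2 being added, as did 8.59% of all windows. Windows were also held for 39 family relatives and other SRF and MRTF targets, the lists read further below, some with more than 1 window. Of these 39 genes 8 had an exact box and 13 an exact or 1-off box, so such boxes were not particular to the 8 genes. The windows below set genes that were highest at day 3 beside Cnn2, which was not, with exact and 1-off boxes in capitals.
Acta2 (chr19:34255374-34255623, minus strand): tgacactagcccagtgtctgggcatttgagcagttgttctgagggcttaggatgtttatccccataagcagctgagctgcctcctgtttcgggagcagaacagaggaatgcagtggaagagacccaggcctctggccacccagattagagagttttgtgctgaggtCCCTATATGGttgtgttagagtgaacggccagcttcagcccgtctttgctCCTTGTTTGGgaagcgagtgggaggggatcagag
Myl9 (chr2:156775214-156775463, plus strand): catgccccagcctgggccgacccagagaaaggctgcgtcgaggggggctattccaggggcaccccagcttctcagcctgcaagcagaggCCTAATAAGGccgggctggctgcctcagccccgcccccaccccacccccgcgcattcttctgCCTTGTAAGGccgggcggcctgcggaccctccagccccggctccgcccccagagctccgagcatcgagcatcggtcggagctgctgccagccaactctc
Cnn1 (chr9:22099003-22099252, plus strand): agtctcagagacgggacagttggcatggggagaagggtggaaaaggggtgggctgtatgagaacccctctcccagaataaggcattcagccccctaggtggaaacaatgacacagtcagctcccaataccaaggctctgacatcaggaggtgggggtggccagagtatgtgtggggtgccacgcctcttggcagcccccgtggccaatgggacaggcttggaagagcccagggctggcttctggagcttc
Cnn2 (chr10:79988350-79988599, plus strand): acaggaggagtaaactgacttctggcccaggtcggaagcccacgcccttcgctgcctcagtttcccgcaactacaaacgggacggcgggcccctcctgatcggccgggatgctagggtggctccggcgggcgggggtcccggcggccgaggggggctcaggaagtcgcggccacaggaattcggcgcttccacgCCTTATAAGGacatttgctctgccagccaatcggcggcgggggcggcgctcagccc

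In Acta2 the capitals mark CCCTATATGG at 84 to 75 bases and CCTTGTTTGG at 34 to 25 bases before that start, each 1 core base off the exact form. Myl9 has the exact CCTAATAAGG at 161 to 152 bases and the 1-off CCTTGTAAGG at 99 to 90 bases. The Cnn1 window has neither form, although Cnn1 was among the genes highest at day 3. Cnn2 has the exact CCTTATAAGG at 56 to 47 bases, and its signal did not separate the groups. The Tpm1 and Tpm2 windows, not printed, have neither form, and those genes did not have the day 3 step. A match or its absence is a description of this window alone.

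The wider contractile set was read from 2 lists, 12 family relatives of the 8 genes and 32 other cytoskeletal targets of SRF and MRTF, of which 43 genes were measured. In EpiSC-like cells against ESC 0 of the 43 passed, against 1.90% of all genes, with 14 at an unadjusted p under 0.05, against 16% of all genes (2903 of 18193). Their median difference was -0.04, against 0.03 over all genes, and 25 of 43 lay below 0 and 18 above. The differences ran from -1.13 to 2.33. At day 7 against ESC 0 of 43 passed, against 1.05% of all genes, with 10 at an unadjusted p under 0.05, against 18.3% of all genes, and a median of -0.04. For day 7 against EpiSC-like cells 0 of 43 passed, with 8 at an unadjusted p under 0.05, against 14.1% of all genes. Of the 43 genes 8 had both EpiSC-like arrays above the other 4 and 6 had both below, against 11.3% and 8.29% of all genes. With a pseudocount of 64 the counts of passing genes were 2, 3 and 1 of 43 in the 3 comparisons, against 3.66%, 3.63% and 1.15% of all genes.

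The striated muscle actins were among those 8. Actc1, cardiac alpha-actin, read 28.9 and 45.3 in ESC, 149 and 291 in EpiSC-like cells, and 66.1 and 31.7 at day 7. Its difference of EpiSC-like cells from ESC was 2.10 ± 0.41 (adjusted p = 0.0641 in limma). Acta1, skeletal alpha-actin, read 124 and 140 in ESC, 215 and 407 in EpiSC-like cells, and 97.1 and 62.3 at day 7 (1.08 ± 0.36, adjusted p = 0.207). Flnc, the muscle filamin that crosslinks actin, named here after its values were seen, read 156 and 59.7 in ESC, 369 and 840 in EpiSC-like cells, and 115 and 96.4 at day 7 (2.33 ± 0.51, adjusted p = 0.0833 in limma). In all 3 genes both day 3 arrays were the highest of the 6, as in Tagln.

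Other relatives did not have that shape. Tagln2, the transgelin of cells that are not smooth muscle, read 2023 and 2322 in ESC, 1071 and 1144 in EpiSC-like cells, and 1133 and 1294 at day 7, with a day 3 difference from ESC of -0.96 ± 0.23 (adjusted p = 0.102 in limma). Tagln3, a neuronal transgelin, stood at 0.32 ± 0.34 and Cnn3, another calponin, at -0.15 ± 0.29. The cytoplasmic actins Actb and Actg1 were at -0.03 ± 0.53 and -0.04 ± 0.35. Actb read 18022 and 37085 in ESC, 17535 and 36703 in EpiSC-like cells, and 17743 and 33530 at day 7. Each group thus held a like step from replicate 1 to replicate 2, and within the 2 sets the day 3 differences of Actb were -0.039 and -0.015. The tropomyosins Tpm3 and Tpm4 were at -0.08 ± 0.21 and 0.85 ± 0.31. The focal adhesion gene Vcl was at 0.11 ± 0.25 and the myosin heavy chain Myh9 at -0.48 ± 0.28. None of these passed in any of the 3 comparisons.

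The 3 targets that passed at day 7 against ESC with a pseudocount of 64, named here after their values were seen, had another order of stages. Cald1, caldesmon, which restrains myosin on the actin filament, read 1164 and 945 in ESC, 2045 and 1591 in EpiSC-like cells, and 2459 and 2872 at day 7 (day 7 against ESC 1.33 ± 0.26, adjusted p = 0.0724 in limma). Synpo2, a binder of actin and alpha-actinin, read 44.9 and 9.17 in ESC, 143 and 107 in EpiSC-like cells, and 205 and 218 at day 7 (2.54 ± 0.43, adjusted p = 0.0550). Anxa2, a membrane and actin-binding annexin, read 1341 and 703 in ESC, 609 and 591 in EpiSC-like cells, and 3347 and 5023 at day 7 (2.06 ± 0.37, adjusted p = 0.0628). In all 3 both day 7 arrays were the highest of the 6, whereas Tagln was at its lowest mean there.

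**Figure D4:**
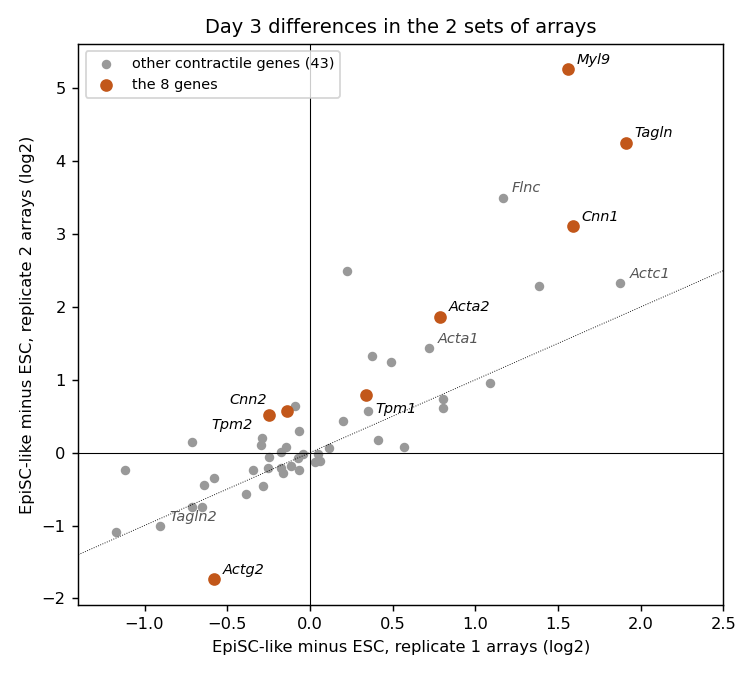
Log2 difference EpiSC-like minus ESC in the replicate 1 arrays (horizontal) and the replicate 2 arrays (vertical) for the 8 genes (orange) and 43 other contractile genes (grey); the dotted line marks equal differences. Tagln, Cnn1, Myl9 and Acta2 are positive in both sets and larger in the second, while the grey points lie on both sides of 0.

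The factors themselves were read next. Srf had signals of 409 and 372 in ESC, 728 and 815 in EpiSC-like cells, and 553 and 430 at day 7. Both EpiSC-like arrays were the highest, with a difference from ESC of 0.95 ± 0.24 that did not pass (adjusted p = 0.119 in limma). Mrtfb stood at 0.56 ± 0.24 and Mrtfa at 0.24 ± 0.24. Myocd, the smooth muscle and heart cofactor, was at 1.60 and 6.27 in ESC, 3.24 and 41.6 in EpiSC-like cells, and 1.61 and 15.8 at day 7, so that 5 of the 6 arrays lay below the pseudocount. Of the 7 genes in the list of SRF and its cofactors 0 passed in any comparison, where at most 1.90% of all genes did.

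Other readouts of SRF and of cell tension were mixed. Genes that passed made up 1.90% of all genes for EpiSC-like cells and 1.05% for day 7, each against ESC, and 0% between day 7 and EpiSC-like cells. Of 9 immediate early targets, the SRF branch driven by growth factor signalling, 0 passed in any comparison, with medians of 0.06 for EpiSC-like cells and -0.62 for day 7, each against ESC. Egr1 stood at -0.68 ± 0.44 and Fos at 0.26 ± 0.35 for EpiSC-like cells against ESC. Of 7 targets of YAP and TEAD, which respond to stiffness and spreading, 0 passed, with Ccn1 at 0.58 ± 0.43 and Ccn2 at 0.73 ± 0.42 at day 3. In the list of TGF-beta inputs and responses 1 of 9 passed at day 7 against ESC, against 1.05% of all genes, and 0 in the other comparisons. This was Smad3, a transducer of TGF-beta and Nodal signals, which rose by 1.67 ± 0.22 (adjusted p = 0.0364 in limma). It read 379 and 407 in ESC, 689 and 691 in EpiSC-like cells, and 1246 and 1330 at day 7, so its order over the groups differed from that of Tagln.

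**Figure D5:**
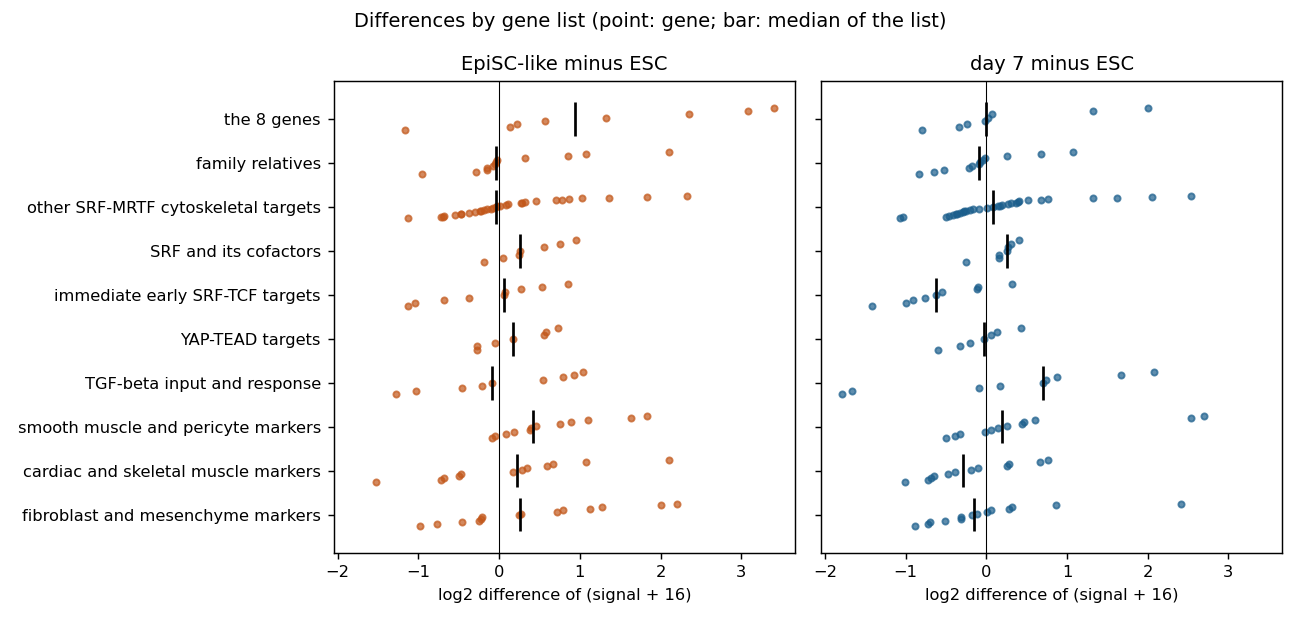
Log2 differences of (signal + 16) by gene list for EpiSC-like minus ESC (left) and day 7 minus ESC (right); each point is a gene and each bar the median of its list. The 8 genes have a median of 0.94 at day 3 and of 0.0015 at day 7. The medians of the relatives and of the other SRF and MRTF targets lie near 0 in both. Their single genes run from -1.13 to 2.33 at day 3 and from -1.06 to 2.54 at day 7.

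Markers of cell types that use these genes were read beside them. The 12 smooth muscle and pericyte markers summed to 2637 and 2620 on the EpiSC-like arrays, against 1400 and 1432 on the ESC arrays, with 0 of 12 called, and to 2370 and 1796 at day 7. Most of that sum was Notch3, at 1768 and 1651 in EpiSC-like cells against 708 and 878 in ESC. Their day 3 differences had a median of 0.43, with 10 of 12 above 0. In 3 of the 12 both EpiSC-like arrays were above the other 4, against 11.3% of all genes. The largest day 3 differences were those of Synpo2 (1.83 ± 0.43) and of Pdgfrb, a pericyte receptor, which read 162 and 93.2 in EpiSC-like cells against 59.0 and 11.1 in ESC (1.63 ± 0.50). Both genes stood higher still at day 7, by 2.54 ± 0.43 over ESC for Synpo2 and by 2.69 for Pdgfrb, an order unlike that of Tagln. The defining gene Myh11, smooth muscle myosin, read 22.3 and 58.8 in EpiSC-like cells against 28.4 and 21.8 in ESC, and Lmod1 read 13.1 or less on every array. The 12 cardiac and skeletal muscle markers, which hold Actc1 and Acta1, summed to 1142 and 1634 in EpiSC-like cells against 1231 and 1183 in ESC. Both EpiSC-like arrays were above the other 4 in 4 of these 12, against 11.3% of all genes, and below in 3, against 8.29%. Their day 3 differences lay above 0 in 7 genes and below in 5. In that list 1 of 12 was called at day 3, against 1.90% of all genes. This was Myl4, an atrial light chain of myosin, which fell by 1.52 ± 0.25 (adjusted p = 0.0462 in limma).

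The 14 measured fibroblast and mesenchyme markers summed to 986 and 900 in EpiSC-like cells, against 614 and 574 in ESC and 500 and 972 at day 7. In 5 of the 14 both EpiSC-like arrays were above the other 4, against 11.3% of all genes, and in 1 both were below, against 8.29%. Of the 14 genes 1 passed at day 3 against ESC, where 1.90% of all genes did. This was Col1a2, a chain of type I collagen, which rose by 2.00 ± 0.34 (adjusted p = 0.0477 in limma). Col1a2 read 27.3 and 67.8 in ESC, 233 and 218 in EpiSC-like cells, and 49.7 and 43.4 at day 7, highest at day 3 as Tagln was. Col5a2, another fibrillar collagen chain, had the list's largest difference and read 254 and 156 in EpiSC-like cells against 45.8 and 19.5 in ESC, and the mesenchymal factor Twist1 read 147 and 80.9 against 68.9 and 15.99. Their differences were 2.20 ± 0.44 (adjusted p = 0.0678 in limma) and 1.27 ± 0.55 (adjusted p = 0.333). In both, the EpiSC-like arrays were above the other 4. Over the list 8 of 14 day 3 differences lay above 0 and 6 below. At day 7 against ESC 6 lay above 0 and 8 below, with the largest at 2.41. Of 8 neural crest markers 1 passed at day 3, the epithelial-mesenchymal regulator Snai2 (1.70 ± 0.29, adjusted p = 0.0486 in limma), and 1 at day 7 against ESC, Pax3 (2.36 ± 0.34, adjusted p = 0.0422 in limma). Of all genes 1.90% and 1.05% passed in these comparisons. In each of them 5 of the 8 markers lay above 0 and 3 below, the lowest at -1.09 at day 3 and -0.84 at day 7. The 9 measured mesoderm and streak markers and the 10 trophoblast markers had 0 calls in any comparison. The part of other cell types in the day 3 values of the contractile genes was not tested.

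The genes whose signals followed Tagln most closely were found by Pearson correlation of log2(signal + 16) over the 6 arrays, as a description of 3 groups of 2, among 1774 genes above the median signal in some group and spanning at least 1 between group means. Acta2 ranked 3 of the 1774 with r = 0.985. Outside the 8 genes the highest were Igsf9, a cell adhesion protein of the immunoglobulin superfamily (r = 0.995), the LIM-only factor Lmo4 (0.986), the opioid growth factor receptor Ogfr (0.983) and Rgs10, a regulator of G protein signalling (0.977). Fgfbp1, a carrier of FGF ligands (0.964), Tmem88 (0.960), the ephrin receptor Epha1 (0.959) and Lcmt2 (0.959) completed the 8 genes named. A predicted gene without a settled name, at rank 6, was passed over, as the rule for named genes states. Igsf9 read 435 and 325 in ESC, 611 and 813 in EpiSC-like cells, and 323 and 341 at day 7, so its range is far narrower than that of Tagln. Among the other contractile genes, r with Tagln was 0.943 for Cnn1, 0.710 for Myl9, 0.531 for Cnn2, 0.394 for Tpm2, -0.110 for Tpm1 and -0.882 for Actg2. None of the 8 genes named was among the 43 other contractile genes. How many of the 43 met the signal and span rule was not counted, so nothing is read from their absence.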

How the data were processed

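The authors deposited a signal intensity on a linear scale for each probe set of 6 Affymetrix 3' expression arrays. Affymetrix Expression Console (version 1) was used, per the submitters' processing notes; its algorithm and the probe annotation's build are not given in the sources used here. Leaving out 2% of probe sets at each end, the mean was 500.003 to 500.004 on every array, so the arrays had been scaled before deposition. The 64 control probe sets were left out. The platform annotation gave 1 gene to 34945 probe sets, of which 34741 matched the RefSeq table (GRCm38.p6) with 0 symbols changed. Each of 18193 genes was read from its probe set with the highest mean signal.

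Group means were fitted with limma 3.58.1 under R 4.3.3 to log2(signal + 16) of all 6 arrays, with no block and no filter. Variances were moderated with eBayes (3 residual degrees of freedom). Genes passed where p, adjusted by Benjamini-Hochberg over all 18193, was under 0.05. The fit was tested on simulated data. The number of arrays limits the precision. Named genes are the 8 members, called members of the gene lists (up to 4 per list and comparison) and 21 further genes fixed as values. A further gene list is not reported here. Notch3, Synpo2, Pdgfrb, Lmod1, Col5a2 and Twist1 were named after their values were seen. The members, lists and alternatives (pseudocount, filter, scaling, block, probe set choice, variance trend, each array left out) were chosen with earlier results of these data known.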

Additional observations from a re-analysis of the deposited data

How the results depend on the processing

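Of the 8 genes, 0 passed for day 7 against EpiSC-like cells as reported, but 1 passed with a pseudocount of 64, 1 with genes under the 25th percentile of signal left out, 2 with those under the median left out and 1 with a variance trend. Tagln, whose day 3 arrays led to the choice and carry it over the filters, was each of these calls but 1, so that the other 7 genes gave 0, 0, 1 and 0, the 1 being Acta2. In the same order of settings, passing genes among the 43 others numbered 2, 1, 2 and 3 for day 3 against ESC, where 3.66%, 4.73%, 8.22% and 4.36% of all genes passed. The 2 filters left 41 and 32 of the 43. Both directions are pooled in these counts, which for day 3 include Tagln2, lower there, in each setting but the 25th percentile filter. The passing genes among the others numbered 3, 3, 4 and 5 for day 7 against ESC (3.63%, 3.8%, 9.42% and 4.34% of all genes), and 1, 1, 3 and 2 between day 7 and day 3 (1.15%, 1.02%, 3.69% and 1.09%). Calls over the whole table moved too: for day 3 against ESC they were 513 higher and 280 lower with the trend, against 242 and 104, and 0 with a pseudocount of 1. At day 7 against ESC no member tested passed under any alternative, with 7 of the 8 left by the lower filter and 6 by the higher. Centring arrays on their median gave 100 higher and 74 lower genes in that comparison, against 139 and 52, and moved the median of all genes to -0.147.

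The median day 3 difference of the 8 genes, 0.94, was 0.30 with all probe sets of a gene averaged and 0.40 to 1.52 with 1 array left out. The day 7 difference from ESC was -0.139 for Cnn1 and -0.089 for Tpm2 with arrays centred, and -0.061 for Cnn1 with quantile normalization. Leaving out 1 array gave -0.014 to 0.063 for Cnn1, -0.18 to 0.14 for Cnn2 and -0.26 to 0.41 for Tpm2 there. At day 3 against ESC the ranges were -0.16 to 0.59 for Cnn2, -0.18 to 1.31 for Tpm1 and -0.11 to 0.38 for Tpm2. Between day 7 and day 3 they were -0.61 to 0.14 for Cnn2 and -0.40 to 0.27 for Tpm2. The cause of these changes of sign was not tested. Tagln, Acta2, Cnn1, Myl9 and Actg2 kept their sign at day 3 against ESC in every alternative that held them, with Tagln at 2.38 to 3.74. The signal filters held no Actg2 and the higher one no Cnn1.

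Arrays of the same replicate number deviated together with r = 0.286, 0.0772 and 0.0942 in the 3 pairs of groups, so the numbers were not taken as a pairing. With the replicate number as a block, 0 of the 8 and 0 of the 43 genes passed in any comparison, as did 0 of all genes (smallest adjusted p = 0.0526 in limma). That fit has fewer residual degrees of freedom.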
